A study of Mus musculus with 23 samples.

Results

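The 23 probes described here are among the brightest spots on the arrays of heat-treated mouse embryos and include those of the cytoplasmic actins Actb and Actg1, the tubulin Tuba1b and the cyclophilin Ppia. They were chosen by the deposited values themselves: a probe had to be empty in at least 10 of the 12 control columns and above 3 in at least 8 of the 11 heat columns. Of the 36227 probes in the table, 56 met both thresholds, and leaving out 33 probes of ribosomal protein genes gave the 23 members. The series asked how p53, a transcription factor activated by cellular stress, and a brief hot bath affect gene expression in the embryo. Transcripts of whole embryos of day 8.5, from matings of p53 heterozygous mice, were measured on CodeLink 1-colour arrays with biotin-labelled cRNA and Alexa-647 streptavidin. After 10 minutes at 43 °C (heat) or 38 °C (control), embryos were genotyped and pooled by genotype and bath, with 3 to 7 embryos to a pool.

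The heat groups were p53 null (p53 -/-, n = 3), heterozygous (p53 +/-, n = 4) and wildtype (p53 +/+, n = 4) pools, and the control groups were null, heterozygous and wildtype pools (n = 4 each). The 4th pool of null heat was not used here. The 3 heat groups shared the bath and differed in p53 genotype, which all cells of an embryo carry. The labels do not name litters or the time from bath to collection, so p-values measure only the spread between these pools, and the number of arrays limits the precision. No probe listed here carries the symbol Trp53, so the mutated gene gave no check of the genotypes. Of the neural tube markers looked for, 12 of 12 on the array were above the 40th percentile on most heat arrays. So were 12 of 12 somite and mesenchyme markers and 12 of 13 heart muscle markers. The other lists gave 10 of 10 primitive red cell, 16 of 17 yolk sac and visceral endoderm and 6 of 6 epithelium markers. Endothelium gave 7 of 9, and trophoblast and decidua 5 of 9. Most probes of an array lie above its 40th percentile by definition, and each gene was read from its probe of highest mean. These counts are thus a weak check of the tissues. In RNA from whole embryos, fewer cells of a type and less RNA per cell cannot be told apart.

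Transcripts of this kind are made in nearly all cells. Actins and tubulins build the filaments that shape cells and carry chromosomes and cargo, cyclophilins help proteins fold, and chromatin and RNA-binding proteins package the genome and its messages. Their transcripts are abundant among the messenger RNAs of rapidly dividing embryonic cells, and some of them serve as loading controls in other assays. A few abundant embryonic transcripts are restricted in space, such as that of Crabp1, a retinoic acid-binding protein of the developing nervous system.

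Of the 23 members, 10 carry 1 gene symbol: Actb, Actg1, Tuba1b, Ppia, Naca, Ldha, Hmgn1, Hnrnpa3, Crabp1 and Txndc11. Another 3 carry several symbols and 10 have no gene listed here, so these 13 are given by probe number. Over the whole table, 21615 probes have 1 symbol, 681 several and 13931 none listed. The RefSeq table of promoters (build GRCm38.p6, 250 bases before to 50 after the gene's start) held 11 promoters for 9 of the 10 named genes, with a second one for Ldha and for Txndc11; the first listed for each gene is described, against the first listed for each of the 27025 genes in the table. The promoters of 4 of them are printed because together they show the range of promoter composition among the members, with the letters of the searched motifs in capitals. They are Actg1 (chr11:120348446-120348745 on the minus strand), Ppia (chr11:6415617-6415916 on the plus strand), Ldha (chr7:46845554-46845853 on the plus strand) and Naca (chr10:128035096-128035395 on the plus strand).
Actg1: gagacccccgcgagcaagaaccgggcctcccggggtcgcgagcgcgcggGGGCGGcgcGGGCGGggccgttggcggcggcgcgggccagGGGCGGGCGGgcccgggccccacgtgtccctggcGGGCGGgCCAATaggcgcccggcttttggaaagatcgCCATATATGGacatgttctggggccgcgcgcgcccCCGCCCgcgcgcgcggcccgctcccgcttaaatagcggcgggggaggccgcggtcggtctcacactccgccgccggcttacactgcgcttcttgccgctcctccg
Ppia: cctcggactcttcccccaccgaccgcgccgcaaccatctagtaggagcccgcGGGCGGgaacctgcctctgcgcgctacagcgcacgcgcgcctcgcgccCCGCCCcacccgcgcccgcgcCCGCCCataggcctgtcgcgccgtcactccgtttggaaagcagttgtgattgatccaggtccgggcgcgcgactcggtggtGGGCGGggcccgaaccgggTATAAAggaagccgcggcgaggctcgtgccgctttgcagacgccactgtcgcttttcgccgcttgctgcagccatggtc
Ldha: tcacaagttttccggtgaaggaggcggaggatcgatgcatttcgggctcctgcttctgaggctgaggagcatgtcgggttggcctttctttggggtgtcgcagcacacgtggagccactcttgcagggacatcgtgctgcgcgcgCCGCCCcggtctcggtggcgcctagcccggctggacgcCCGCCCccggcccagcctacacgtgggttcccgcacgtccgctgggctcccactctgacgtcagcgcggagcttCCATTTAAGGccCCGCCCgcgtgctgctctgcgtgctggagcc
Naca: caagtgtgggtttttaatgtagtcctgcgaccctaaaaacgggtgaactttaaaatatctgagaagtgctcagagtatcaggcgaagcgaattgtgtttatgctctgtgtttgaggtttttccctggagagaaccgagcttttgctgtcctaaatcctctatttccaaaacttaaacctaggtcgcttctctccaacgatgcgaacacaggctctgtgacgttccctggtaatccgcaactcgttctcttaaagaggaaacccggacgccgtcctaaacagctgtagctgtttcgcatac
The motifs searched on both strands were the TATA box TATAAA, the GC box GGGCGG, the CCAAT box, the heat shock element core GAANNTTC and the CArG box, the site known for serum response factor.

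The GC box was found in 8 of the 9 first promoters (the exception was Naca), against 35.9% of all first promoters. In the printed sequences GC boxes appear as GGGCGG or, on the other strand, CCGCCC, and neighbouring ones can overlap. The CArG box was found in Actg1 at position -90 and in Ldha at position 8 relative to the gene's start, against 1.57% of all first promoters. TATAAA was found in Ppia at position -29 and in Txndc11 at position -4, against 14.2% of all first promoters. CCAAT was found in the first promoters of Actg1, Hmgn1 and Hnrnpa3, against 37.9%. GAANNTTC was found in 0 of the 9 windows, against 7.95% of all first promoters. The 9 first promoters had a median GC content of 70.7% (46% in Naca to 77.3% in Actg1) and a median of 39 CpG sites, against 52.7% and 7 over all first promoters. The second promoters differed: that of Ldha had 56.7% GC, 13 CpG sites and none of the motifs, and that of Txndc11 had 51.3% GC, 5 CpG sites and no GC box, but a CCAAT box at position 14. These letters describe the windows and were not tested.

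The values that chose the members left no borderline case on either side. Leaving out ribosomal protein probes, 7906 probes were empty in at least 10 control columns. The 8th highest heat value of these was at or below 1 for 7883 probes, between 1 and 200 for 0 probes and above 200 for the 23 members. The nearest members inside the threshold were Actb with an 8th highest heat intensity of 218, probe 102043 with 224 and Tuba1b with 226, each empty in all 12 controls. The nearest probes outside were those of Kalrn at 0.443, Fosl2 at 0.463 and 1700125H20Rik at 0.529, a gap of 412-fold. The threshold of 3 thus divided the dimmest spots from the brightest, with nothing between.

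The count of empty control cells was nearly as clear-cut. Of the 23 members, 18 were empty in all 12 controls, 3 in 11 and 2 in 10. Leaving out ribosomal protein probes, no other probe above 3 on at least 8 heat arrays was empty in 8 or 9 controls, and 2 were empty in 7. These 2 read Hmgn2, a nucleosome-binding protein related to Hmgn1, and Hba-x, an embryonic alpha-like globin. Hmgn2 had a mean deposited intensity of 222 on heat arrays and 278 over its 5 control values, and Hba-x 188 on heat arrays and 176 over its 5 control values. Among the probes outside the ribosomal protein genes, 27 were as bright on the heat arrays as the lowest member, and 4 of them were not members. They were Calm2, which encodes the calcium sensor calmodulin (6 empty controls), Pabpc1, which binds poly(A) tails (6 empty), Eef1d, a subunit of the elongation factor complex (5 empty), and probe 229060 (4 empty). These, Hmgn2 and Hba-x were named after their values were seen. The 4 had control values: Calm2 averaged 252 ± 44.8 on heat arrays (SD, n = 11) and 296 over its 6 control values, and Eef1d averaged 230 on heat arrays and 282 over its 7 control values.

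Among bright probes, the share of empty control cells was larger in each brighter class of heat median. Below a heat median of 100, where the blanked dim spots lie, 28.8% of control cells were empty. Probes with a heat median from 100 to 150 had 2.82% of their control cells empty. The share was 18.7% from 150 to 200, 33.8% from 200 to 225, 75.9% from 225 to 250 and 96.5% from 250 to 300, and 100% above 300. The members were spread over the last 3 of these classes, with 4, 18 and 1 probes, beside 6, 21 and 6 ribosomal protein probes. Of the 276 control cells of the members, 7 held a value, in 5 probes and between 255 and 306. Naca had 306 on null control C, Ldha had 274 on null control B and 255 on null control C, and Hmgn1 had 263 on null control B. Probe 390028 had 279 on null control B and 283 on heterozygous control D, and probe 309089 had 282 on heterozygous control C. Each of the 7 lay within the range of the same probe on the heat arrays. The highest value on a control array ran from 181 to 329, and that on a heat array from 235 to 488. The labels do not give the filter that emptied these cells, so for the members the bath and the handling of the arrays cannot be told apart, and no heat response was computed from their own probes.

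On the heat arrays all 253 member cells held a value, of which 228 were above 200. Deposited intensities ran from 138 to 425 with a median of 266, and the means of single members from 240 to 301. The median of the 23 members was 277 on null heat A, 178 on null heat B and 355 on null heat C. It was 266, 237, 266 and 341 on heterozygous heat A to D, and 209, 253, 268 and 288 on wildtype heat A to D. The 3 null pools thus held both the highest and the lowest array, and the genotypes overlapped. Relative to the highest spot of the same array, these medians were 69.9% to 79.5% on all 11 heat arrays. The members ranked from 1 to 89 among the spots of 10 heat arrays, and down to 195 on null heat B.

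Most of the spread between arrays was shared by the members. As deposited, the coefficient of variation of a member over the 11 arrays was 13.3% to 24.7%, and relative to the members' median on each array 3.67% to 12.4%. The median log2 SD of the members over the heat arrays was 0.29 as deposited and 0.13 after quantile normalization. For all 22767 tested probes it was 0.23 as deposited and 0.20 after normalization, and for the 33 ribosomal protein probes 0.28 and 0.13. Quantile normalization gives the same top values to every array, so a normalized value of a member states its rank among the bright spots of its array. A shift common to the brightest spots is removed by construction, and differences below are changes in position among them.

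Genotypes were compared within the heat arrays, where each of the 23 members had a value and passed the filter on low values. The rule used no genotype, but it used these heat values: a probe at or below 3 in all 4 wildtype or all 4 heterozygous heat pools could not have become a member, whereas one low in the 3 null pools could. All 23 members were above 3 on all 11 heat arrays. In null against wildtype heat pools 0 of 23 members passed an adjusted p of 0.05 in limma and 0 had an unadjusted p under 0.05, where 0.0791% of all tested probes were called (18 probes) and 15.1% had an unadjusted p under 0.05. In heterozygous against wildtype heat pools the members again gave 0 calls and 0 unadjusted p-values under 0.05, where 0.00439% of all tested probes were called (1 probe) and 9.27% were under 0.05 unadjusted. In null against heterozygous heat pools 0 members were called and 0 had an unadjusted p under 0.05, where 0% of all tested probes were called and 3.1% were under 0.05 unadjusted. As few probes were called anywhere, the count of 0 among the members is near the background and is no result about them.

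The members' differences between genotypes were small, and all 69 of their 95% intervals crossed 0. Their median log2 difference was -0.051 in null against wildtype pools (range -0.24 to 0.15), with 9 members higher and 14 lower in null pools, and -0.01 over all tested probes. It was 0.008 in heterozygous against wildtype pools (range -0.15 to 0.15), with 12 higher and 11 lower, and 0.014 over all tested probes. In null against heterozygous pools it was -0.056 (range -0.30 to 0.16), with 7 higher and 16 lower, and -0.0096 over all tested probes. The medians of the 33 ribosomal protein probes, of which 0 were called, were -0.015, -0.0048 and -0.0065 in the same comparisons. The median standard error of a member was 0.096, 0.088 and 0.096, against 0.15, 0.14 and 0.15 over all tested probes. Without null heat B, the array on which the members were dimmest, the members' median was 0.016 in null against wildtype and 0.067 in null against heterozygous pools, of the opposite sign. The sign of the null against wildtype median also turned with arrays centred on their median (0.012) and with deposited values (0.017).

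The cytoskeletal members were Actb and Actg1, the 2 cytoplasmic actins, and Tuba1b, an alpha-tubulin of microtubules. Values below are normalized intensities in the order of pools A to C or A to D. Actb had 263, 171 and 258 in null heat pools, 224, 224, 259 and 276 in heterozygous heat pools, and 261, 262, 227 and 262 in wildtype heat pools. Its null value on array B was the lowest, 1 wildtype value lay apart from the other 3, and the groups overlapped. Actb averaged 231 ± 51.4 in null, 246 ± 25.9 in heterozygous and 253 ± 17.4 in wildtype heat pools (SD), and null against wildtype gave a log2 difference of -0.16 ± 0.14 (95% interval -0.47 to 0.15, adjusted p = 0.565).

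Actg1 had 303, 163 and 261 in null heat pools, 242, 266, 291 and 269.9 in heterozygous heat pools, and 249, 289, 295 and 278 in wildtype heat pools. Null pools held its highest and its lowest value, on arrays A and B, so the null range covered that of both other groups. The null against wildtype difference, -0.24 ± 0.17 (95% interval -0.61 to 0.12, adjusted p = 0.457), was the most negative among the members in that comparison. It was 0.018 without null heat B. Tuba1b had 253, 276 and 238 in null heat pools, 252, 217, 223 and 242 in heterozygous heat pools, and 242, 226, 259 and 240.4 in wildtype heat pools. On null heat B Tuba1b was at its highest, where Actb and Actg1 were at their lowest. Its differences were 0.081 ± 0.081 (95% interval -0.095 to 0.26, adjusted p = 0.6) in null against wildtype and 0.13 ± 0.081 (95% interval -0.043 to 0.31, adjusted p = 0.975) in null against heterozygous pools.

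Members that act in protein synthesis and folding were Naca, the alpha subunit of the nascent polypeptide-associated complex at the ribosome, Ppia, cyclophilin A, a prolyl isomerase, and Txndc11, a thioredoxin-domain protein of the endoplasmic reticulum. Naca averaged 262 ± 16.8 in null, 258 ± 5.43 in heterozygous and 260.3 ± 31.4 in wildtype heat pools, and its null against wildtype difference was 0.015 ± 0.091 (95% interval -0.18 to 0.21, adjusted p = 0.946). Naca spanned 243 to 274 in null, 252 to 263 in heterozygous and 233 to 297 in wildtype heat pools, so all groups overlapped. Ppia averaged 257 ± 60.7 in null, 261 ± 9.14 in heterozygous and 264 ± 4.99 in wildtype heat pools. The wide spread of Ppia in null pools came from arrays B and C, at 190.2 and 309, while its wildtype pools lay close together. Ppia spanned 190.2 to 309 in null, 250.1 to 271 in heterozygous and 259 to 269.9 in wildtype heat pools. Its null against wildtype difference was -0.068 ± 0.13 (95% interval -0.35 to 0.21, adjusted p = 0.8).

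Txndc11 had 318, 295 and 265 in null heat pools, 293, 327, 279.7 and 293 in heterozygous heat pools, and 288, 273, 335 and 269 in wildtype heat pools. The 3 groups overlapped, with the highest value in a wildtype pool. Its differences from wildtype were 0.0096 ± 0.095 (95% interval -0.20 to 0.22, adjusted p = 0.969) in null and 0.039 ± 0.088 (95% interval -0.15 to 0.23, adjusted p = 0.93) in heterozygous pools. Probes 117021 and 207052 of Txndc11 had deposited heat means of only 2.91 and 4.06, against 301 for the member. The brightness of the member is thus not shared by these probes of the gene. Ldha, the lactate dehydrogenase subunit that ends glycolysis when pyruvate is reduced, averaged 249 ± 37.9 in null, 267 ± 16.2 in heterozygous and 269 ± 15.5 in wildtype heat pools. It spanned 218 to 291 in null, 246 to 282 in heterozygous and 248 to 282 in wildtype heat pools, so null pools reached both below and above the other groups. Its null against wildtype difference was -0.12 ± 0.098 (95% interval -0.33 to 0.096, adjusted p = 0.527).

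The nuclear members were Hmgn1, which binds nucleosomes and loosens chromatin, and Hnrnpa3, which binds nascent and spliced RNA. Hmgn1 averaged 277 ± 21.4 in null, 253 ± 16.9 in heterozygous and 249 ± 4.99 in wildtype heat pools. Hmgn1 spanned 254 to 297 in null, 240.4 to 277 in heterozygous and 245 to 256 in wildtype heat pools. Its null against wildtype difference, 0.15 ± 0.074 (95% interval -0.0092 to 0.32, adjusted p = 0.343), was the highest of the members in that comparison and had their lowest adjusted p. Unadjusted, that p was 0.0622, and the lowest null value, 254, lay below the highest wildtype value, 256. Hnrnpa3 averaged 249 ± 37.0, 249 ± 14.9 and 245 ± 15.1 in null, heterozygous and wildtype heat pools, with a null against wildtype difference of 0.013 ± 0.098 (95% interval -0.20 to 0.23, adjusted p = 0.956). It spanned 217 to 289 in null, 237 to 264 in heterozygous and 223 to 254 in wildtype heat pools, with the lowest and the highest value both in null pools.

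Crabp1 was the one named member with a restricted pattern in the embryo, and it is also on the list of neural tube markers used here. Crabp1 had 252, 282 and 224 in null heat pools, 234, 234, 200.1 and 231 in heterozygous heat pools, and 251, 246, 254 and 243 in wildtype heat pools. As normalized, each heterozygous pool was below each wildtype pool, and 2 of the 3 null pools were above each heterozygous pool. As deposited, the pools overlapped, at 219 to 298 in heterozygous and 209 to 264 in wildtype heat pools. The heterozygous against wildtype difference was -0.15 ± 0.08 (95% interval -0.32 to 0.028, adjusted p = 0.608) and the null against heterozygous difference 0.16 ± 0.087 (95% interval -0.026 to 0.35, adjusted p = 0.975). Both depended on the scaling: they were 0.0046 and 0.012 with deposited values and 0.001 and 0.011 with arrays centred on their median. With arrays scaled to their 90th percentile they were -0.20 and -0.087. The normalized wildtype values of Crabp1 lay within 243 and 254, and the lowest normalized value, 200.1, was that of heterozygous heat C.

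Of the 13 members given by probe number, 9 fall under the rule for values on every array, 6 through a high and 3 through a low mean intensity. Probe 223037 had 289, 289 and 275 in null heat pools, 318, 348, 307 and 269 in heterozygous heat pools, and 259, 315, 269.9 and 276 in wildtype heat pools. Its heterozygous pools reached furthest up, and the heterozygous against wildtype difference, 0.15 ± 0.087 (95% interval -0.041 to 0.34, adjusted p = 0.64), was the highest of that comparison. Probe 251037 had 267, 309 and 307 in null heat pools, 289, 242, 252 and 288 in heterozygous heat pools, and 291, 284, 327 and 266 in wildtype heat pools. Its null pools overlapped both other groups, and its lowest values were in heterozygous pools B and C. Probe 373055 had 273, 273 and 300.0 in null heat pools, 288, 284, 276 and 303 in heterozygous heat pools, and 265, 269, 289 and 309 in wildtype heat pools. Its groups covered nearly the same range.

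Probe 333032 had 277, 233 and 269.9 in null heat pools, 278, 293, 289 and 297 in heterozygous heat pools, and 245, 274, 320.3 and 288 in wildtype heat pools. Its lowest value was that of null heat B and its highest that of wildtype heat C. Probe 60063 had 261, 250.1 and 282 in null heat pools, 266, 269.9, 320.3 and 275 in heterozygous heat pools, and 303, 303, 275 and 246 in wildtype heat pools. Heterozygous heat C stood above all others, and the null pools lay within the range of the wildtype pools. Probe 331020 had 295, 259 and 246 in null heat pools, 309, 318, 258 and 253 in heterozygous heat pools, and 278, 269.9, 282 and 289 in wildtype heat pools. Its wildtype pools lay close together, and the other groups reached above and below them.

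The 3 at the low end each had their lowest value on null heat B. Probe 390028 had 248, 159 and 252 in null heat pools, 265, 267, 284 and 247 in heterozygous heat pools, and 226, 278, 240.4 and 231 in wildtype heat pools. Null heat B was lowest, and its null against heterozygous difference, -0.30 ± 0.14 (95% interval -0.62 to 0.011, adjusted p = 0.975), was the most negative of that comparison. Probe 102043 had 249, 131 and 274 in null heat pools, 229, 253, 254 and 235 in heterozygous heat pools, and 275, 249, 216 and 220.3 in wildtype heat pools. The value of 131 on null heat B was the lowest of any member on any array, and its null against wildtype difference was -0.20 ± 0.20 (95% interval -0.65 to 0.24, adjusted p = 0.606). Probe 168054 had 250.1, 187 and 230.1 in null heat pools, 239, 265, 199 and 216 in heterozygous heat pools, and 250.1, 229, 251 and 254 in wildtype heat pools. Null heat B was again lowest, and heterozygous heat C next to it. The remaining 4, probes 224075, 22104, 309089 and 85084, had null against wildtype differences from -0.056 to 0.023, with group means between 241 and 278.

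Genes of related roles were read from the same fit, from lists written with earlier results of these data known. Of the 10 role lists, 5 hold named members besides the cytoskeletal one: chaperones and cyclophilins (Ppia), chromatin and nuclear proteins (Hmgn1), embryonic growth and imprinted genes (Crabp1), glycolysis (Ldha) and translation factors (Naca). Hnrnpa3 and Txndc11 are in none. In null against wildtype, heterozygous against wildtype and null against heterozygous heat pools, 0 genes rose and 0 fell in each of the 10 lists. Their median log2 differences in null against wildtype pools were 0.081 for 21 actin, tubulin and actin-binding genes, 0.18 for 12 glycolysis genes, 0.10 for 21 chaperones and cyclophilins, 0.12 for 18 chromatin and nuclear genes, 0.016 for 23 embryonic growth and imprinted genes and 0.035 for 20 translation factors, against -0.01 over all tested probes. In the 4 lists without a member they were -0.0048 for 28 RNA-binding and splicing genes, 0.074 for 29 genes of mitochondrial respiration, 0.035 for 21 genes of protein turnover and 0.15 for 26 iron, redox and signalling genes.

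The genes of smallest p in these lists were named by rule and did not pass. Pfn1, the actin-binding profilin, had a null against wildtype difference of 0.37 ± 0.085 (limma adjusted p = 0.216). Among embryonic genes Dppa5a, an RNA-binding protein of early embryonic cells, had 0.71 ± 0.19 in null against wildtype (adjusted p = 0.262) and 0.56 ± 0.17 in heterozygous against wildtype pools (adjusted p = 0.39). Among chromatin genes Hmgb3, a DNA-bending protein, had 0.25 ± 0.074 (adjusted p = 0.295), and among glycolysis genes Pfkl, a subunit of phosphofructokinase, had 0.41 ± 0.19 (adjusted p = 0.33), both in null against wildtype pools. Among chaperones Cct3, a subunit of the chaperonin that folds actin and tubulin, had 0.29 ± 0.13 (adjusted p = 0.32). Others of the same rule had negative differences. Eef2, the elongation factor that moves the ribosome along, had -2.03 ± 1.05 (adjusted p = 0.358) and Anp32b, a histone chaperone, -0.24 ± 0.10 (adjusted p = 0.313) in null against wildtype pools. Dek, a chromatin protein, had -0.81 ± 0.37 in heterozygous against wildtype pools (adjusted p = 0.541), and Anp32a, related to Anp32b, had -0.55 ± 0.23 in null against heterozygous pools (adjusted p = 0.975).

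Markers of yolk sac and of trophoblast and decidua, tissues that can stay attached to dissected embryos, had positive median differences from wildtype in null and heterozygous heat pools, and none passed the test. The summed deposited level of 17 yolk sac and visceral endoderm markers was 347 to 482 in null, 391 to 564 in heterozygous and 199.7 to 416 in wildtype heat pools. Of these 17, 0 rose and 0 fell, with medians of 0.53 in null against wildtype and 0.80 in heterozygous against wildtype pools. The sum of 9 trophoblast and decidua markers on the array was 30.1 to 39.98 in null, 27.8 to 48.8 in heterozygous and 21.9 to 29.0 in wildtype heat pools, and 0 of the 6 tested were called. Sums were not scaled between arrays, and in each other list too the lowest sum was that of a wildtype pool. Those of 6 epithelium markers were 153 to 183 in null, 165 to 194 in heterozygous and 129 to 148 in wildtype heat pools. Their normalized medians against wildtype were -0.050 in null and 0.078 in heterozygous pools. The part of yolk sac, trophoblast and decidua in the members' values was not tested.

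Other probes of the same genes, which did not meet the rule, could themselves be compared with the controls. There were 10 such probes, and 6 of them, for Actg1, Hmgn1, Naca and Txndc11, had at least 3 values in each of the 6 groups. These 6 were far dimmer than the members, with deposited heat means of 2.91 to 8.11. The member probes of the same genes had 262 to 301. Whether both kinds of probe measure the same transcripts was not tested, so the differences below hold for these 6 probes only. Control columns had empty cells and no code for missing, and heat columns the reverse. For these probes too, the bath and the handling of the arrays cannot be told apart. In wildtype heat against wildtype control pools 0 of the 6 were called by limma, where 3.08% of the 21979 tested probes were called, and 1 (Hmgn1) had an unadjusted p under 0.05, against 17.8% of all tested probes. In heterozygous heat against heterozygous control pools 0 were called, where 2.31% were called over all, and 2, both of Txndc11, had an unadjusted p under 0.05, against 15.7% over all. In null heat against null control pools 1 was called, probe 207052 of Txndc11, where 5.53% were called over all, and 2 (that probe and Hmgn1) had an unadjusted p under 0.05, against 25.9% over all.

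That probe of Txndc11 had normalized intensities of 3.75, 4.40 and 5.21 in null heat pools, against 5.69, 6.10, 6.82 and 6.94 in null control pools. Each null heat pool was below each null control pool, and the log2 difference was -0.53 ± 0.16 (adjusted p = 0.0499). The call is at the threshold: without null control B, C and D and null heat A and B, each in turn, the adjusted p was 0.0947, 0.106, 0.11, 0.156 and 0.151. With each array centred on its median it was 0.0544. In heterozygous pools the same probe gave -0.43 ± 0.14 (adjusted p = 0.13) and in wildtype pools -0.19 ± 0.14 (adjusted p = 0.528). The null and wildtype responses differed by -0.34 ± 0.21 (adjusted p = 0.336), which did not pass. The other Txndc11 probe, 117021, gave -0.40 ± 0.23 in null, -0.51 ± 0.21 in heterozygous and -0.17 ± 0.21 in wildtype pools.

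The second probe of Hmgn1, 110059, had intensities of 5.26, 4.71 and 4.34 in null heat pools, against 5.53, 6.32, 6.78 and 6.29 in null control pools. It had 5.33, 5.28, 5.54 and 4.99 in heterozygous heat pools, against 4.13, 4.70, 6.06 and 5.22 in heterozygous control pools. It had 6.01, 5.90, 6.07 and 6.35 in wildtype heat pools, against 4.64, 5.89, 5.68 and 4.58 in wildtype control pools. Null heat pools were all below null control pools, and wildtype heat pools were all above wildtype control pools. The log2 differences were -0.39 ± 0.12 in null (adjusted p = 0.0551) and 0.24 ± 0.11 in wildtype pools (adjusted p = 0.26), and the responses differed by -0.62 ± 0.16 (adjusted p = 0.058), none of which passed. The null difference passed with each array centred on its median (adjusted p = 0.0494) and without null control A (adjusted p = 0.0444). In 10 of 12 alternatives it did not pass, with an adjusted p of up to 0.165.

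The other Actg1 and Naca probes had wide or overlapping groups. Probe 88004 of Actg1 averaged 9.40 ± 0.929 in null heat pools, against 7.90 ± 1.09 in null control pools, and 7.48 ± 3.97 in wildtype heat pools, against 7.69 ± 0.784 in wildtype control pools. Probe 152002 of Actg1 averaged 5.50 ± 0.968 in null heat pools, against 4.58 ± 0.663 in null control pools, and 4.21 ± 1.96 in wildtype heat pools, against 4.47 ± 0.323 in wildtype control pools. Probe 213089 of Naca averaged 4.34 ± 0.501 in null heat pools, against 4.68 ± 0.467 in null control pools, and 4.49 ± 0.32 in wildtype heat pools, against 4.30 ± 0.374 in wildtype control pools. The heat minus control differences of these 3 probes had adjusted p-values of 0.405 to 0.906 over the 3 genotypes.

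Within the heat arrays the member probe and the other probes of a gene did not always point the same way. For Hmgn1 the member gave 0.15 ± 0.074 in null against wildtype pools and probe 110059 gave -0.35 ± 0.09 (unadjusted p = 0.00237, adjusted p = 0.258). For Actg1 the member gave -0.24 ± 0.17, while probes 88004 and 152002 gave 0.48 ± 0.35 and 0.49 ± 0.35. Both of these Actg1 probes split the wildtype heat pools, with 11.9, 8.83, 4.36 and 3.93 for probe 88004 and 6.09, 5.41, 2.68 and 2.34 for probe 152002 on pools A to D. For Naca, probe 213089 gave -0.048 ± 0.11 in null against wildtype pools, beside 0.015 ± 0.091 for the member. For Txndc11, probes 117021 and 207052 gave 0.24 ± 0.28 and 0.18 ± 0.17, beside 0.0096 ± 0.095 for the member. Probe 138013 of Ppia, tested only within heat, gave 0.014 ± 0.23, beside -0.068 ± 0.13 for the member. None of these differences passed the test in any probe of a gene.

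The second Ppia probe also shows a bright spot of a member gene in both baths. Its deposited intensity was 123 to 288 over the 11 heat arrays with a mean of 198, against 184 to 266 over 9 control values with a mean of 220.4. It was empty on the other 3 control arrays and was not tested between baths. Probes 362035 of Ldha, 304066 of Tuba1b and 110087 of Actg1 were dim, with heat means of 0.0963, 0.21 and 0.419.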

How the data were processed

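Total RNA of 23 pools of embryos was hybridised to 1-colour arrays. Per the labels, biotin-labelled cRNA was detected with Alexa-647 streptavidin, and the authors deposited linear intensities with empty cells in the control columns and a code for missing in the heat columns. How the images were scanned, corrected and filtered is not given in the sources used here. Members and gene lists were chosen with earlier results of these data known. Named members carry 1 symbol; values on every array are given for the 8 members of highest and the 6 of lowest mean intensity, and at most 2 genes of smallest p per list. Symbols came from GEO's platform annotation and RefSeq.

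Empty and coded cells were missing. On each array, the 5th percentile of the positive values served as a floor before log2. Quantile normalization used the probes with a value on every array of the fit (11 heat arrays, or 23 for the comparison with controls) and placed other probes by interpolation. Tested probes had 3 or more values in each group and exceeded the 40th percentile on 3 or more arrays. In R 4.3.3, limma 3.58.1 fitted group means without covariates (lmFit, then eBayes with trend, two-sided). P-values were adjusted by Benjamini-Hochberg over all tested probes, with 0.05 as threshold, and errors of differences are standard errors. The fit was tested on simulated data. No 2 heat arrays were alike enough to be 1 sample deposited again (highest correlation 0.9855). Alternatives changed the scaling, floor, filter, trend, weights, block and arrays used.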

Additional observations from a re-analysis of the deposited data

Results flagged for a closer look

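By Dixon's test, 76 groups of 4 normalized values were checked for 1 pool far from the other 3. They were the members' heat groups of 4 and, for the 6 tested other probes, the heat and control groups of 4. Of the 76 groups, 5 were marked, all of them heat groups of members, and chance marks about 1 in 20 groups. Hnrnpa3 was 222.7 on wildtype heat A, against 250.1 to 254.5 on the other wildtype heat pools. Actb was 226.7 on wildtype heat C, against 260.5 to 261.9. Crabp1 was 200.1 on heterozygous heat C, against 231 to 234 on the other heterozygous heat pools. Probe 60063 was 320.3 on heterozygous heat C, against 266.4 to 274.8. Probe 168054 was 228.9 on wildtype heat B, against 250.1 to 254.5 on the other wildtype heat pools. The 3 null heat pools are too few for this check, so null heat B was not examined by it.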

How the results depend on the processing

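The 23 members were the same number under 4 other forms of the rule and 18 when a probe had to be empty in all 12 controls. These counts follow from the gaps around the thresholds described above and are no separate check. Members called stayed at 0 in each of the 3 heat comparisons under all 21 alternatives, and 0 of 630 repeats for the named members passed (lowest adjusted p 0.159). With arrays scaled to their 90th percentile, the members' median was -0.29 in null against wildtype, -0.21 in null against heterozygous and -0.081 in heterozygous against wildtype pools. With arrays centred on their median it was 0.012, -0.11 and 0.12 in the same order, and with deposited values 0.017, -0.11 and 0.13, so the direction in null against wildtype and in heterozygous against wildtype pools depends on the scaling. Leaving out each array gave medians of -0.077 to 0.016 (null against wildtype), -0.02 to 0.011 (heterozygous against wildtype) and -0.091 to 0.067 (null against heterozygous). Calls over all probes in null against wildtype pools were 18, 1 with only the 2 groups fitted and 3 to 24 with an array left out (11 without wildtype heat A, 5, 3 and 9 without null heat A, B and C). In heterozygous against wildtype pools they were 1, 5 with array weights, 2 with only the 2 groups and 1 to 3 with an array left out (3 without wildtype heat B or D, 2 without null heat A). In null against heterozygous pools they were 0, 1 without the trend and 0 to 3 with an array left out (3 without null heat A). Letters did not pair the pools throughout: 3 of 10 same-letter pairs correlated over 0.1, and 2 of 11 arrays matched their own letter best. The same-letter correlations ran from -0.32 to 0.68, the highest between null heat A and heterozygous heat A. The replicate block gave 3 calls in null against wildtype pools and 1 call (Txndc11, probe 207052) among other probes in heterozygous heat against control. That count was 0 to 1 with an array left out (1 without heterozygous heat D). In null heat against control it was 1 (Txndc11, probe 207052), also 1 with median centring but for Hmgn1, probe 110059 (adjusted p = 0.0494), with Txndc11 lost (0.0544), and 0 with deposited values, with a floor at the 1st percentile or with 2 values per group, and 0 to 2 with an array left out (2 without null control A, and 0 without null control B, C or D or null heat A or B). The cause was not tested. The normalization fixes the top of each array, so a common shift of all bright spots could not be measured.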
